A study of Mus musculus with 6 samples.

Results

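The transcriptional effectors of the Hippo pathway, a group of their target genes and 5 matricellular CCN proteins were followed through digits in a dish (DID) cultures. The 10 genes were *Yap1*, *Wwtr1*, *Tead1*, *Ankrd1*, *Amotl2*, *Ccn1*, *Ccn2*, *Ccn3*, *Ccn4* and *Ccn5*, taken by gene symbol from the 32286 features counted in each library, and each symbol matched 1 feature. DID cultures are grown from dissociated distal forelimb mesenchyme pooled from wild-type E11.5 embryos of CD-1 mice, and no agent or allele separates the groups. Cells were captured on Day 2, Day 7 and Day 10 of culture, with replicates A and B from independent cultures on each day, which gives 6 droplet libraries of 3′ unique molecular identifier (UMI) counts. Since the only difference between groups is the day, culture age and capture of that day cannot be told apart.

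YAP, encoded by *Yap1*, and its paralog TAZ, encoded by *Wwtr1*, are transcriptional coactivators that bind DNA through TEAD factors such as TEAD1. The Hippo kinases, ending in LATS1 and LATS2, phosphorylate YAP and TAZ and keep them in the cytoplasm, whereas spreading, stiff matrix and actin tension favour their entry into the nucleus. Much of this control acts on the proteins, which UMI counts do not measure. *Ankrd1*, *Amotl2*, *Ccn1* and *Ccn2* are widely used target genes of the YAP and TEAD complex, and CCN1 and CCN2 are secreted proteins that bind integrins and heparan sulfate in the matrix. CCN2 is also known for its role in growth plate cartilage, CCN4 is a WNT-responsive protein of bone and tendon lineages, and CCN5 lacks the C-terminal domain that the other CCN proteins carry.

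The promoters are printed to show the letters that TEAD factors are known to bind, the motif CATTCC, in genes that serve as readouts of YAP. RefSeq promoter sequences (GRCm38.p6) were at hand for 5 of the 10 genes, and the 250 bases before the annotated start were searched on both strands. All 5, namely *Ankrd1*, *Ccn1*, *Amotl2*, *Yap1* and *Wwtr1*, held the motif, against 12.6% of all 32851 promoter windows of that length. *Ankrd1*, *Ccn1* and *Amotl2* are known target genes and the other 5 promoters were not searched, so this is a description and no test. *Ankrd1* held it at 210 and 123 bases before the start, *Ccn1* at 103, *Amotl2* at 65 and *Yap1* at 141 bases. Both annotated starts of *Wwtr1* shared 1 copy, 136 or 170 bases before the start. The CArG box, the motif of serum response factor, was in none of the 5 and in 1.47% of all windows. In the lines below, each written 5′ to 3′ along the gene, capitals mark the motif or its reverse complement. The windows are chr19:36119845-36120094 (minus strand) for *Ankrd1*, chr3:145649986-145650235 (minus strand) for *Ccn1* and chr9:102717554-102717803 (plus strand) for *Amotl2*.
Ankrd1: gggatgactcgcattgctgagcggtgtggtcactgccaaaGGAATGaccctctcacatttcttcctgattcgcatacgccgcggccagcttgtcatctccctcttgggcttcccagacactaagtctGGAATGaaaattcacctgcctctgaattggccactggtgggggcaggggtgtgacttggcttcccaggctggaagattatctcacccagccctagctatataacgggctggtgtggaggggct
Ccn1: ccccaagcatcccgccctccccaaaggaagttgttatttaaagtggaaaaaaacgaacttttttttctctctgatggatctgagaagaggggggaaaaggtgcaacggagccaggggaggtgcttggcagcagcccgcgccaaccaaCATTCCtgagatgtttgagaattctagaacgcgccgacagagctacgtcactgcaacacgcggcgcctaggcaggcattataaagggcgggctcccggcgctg
Amotl2: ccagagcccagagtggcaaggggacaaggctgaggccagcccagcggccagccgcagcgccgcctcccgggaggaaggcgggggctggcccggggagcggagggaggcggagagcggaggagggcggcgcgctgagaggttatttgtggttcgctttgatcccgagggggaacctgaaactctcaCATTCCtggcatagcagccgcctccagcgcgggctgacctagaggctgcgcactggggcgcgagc

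By GENCODE vM21 (GRCm38), *Ccn1* spans chr3:145646976-145649981 and *Ccn2* chr10:24595442-24598683, both compact genes. *Tead1* spans chr7:112679318-112906807, a far longer locus. *Ccn3*, at chr15:54745702-54754039, and *Ccn4*, at chr15:66891320-66923201, lie on the same chromosome. Because the libraries read the 3′ end of transcripts, levels were compared between samples and not between genes.

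After filtering, the libraries held 9448 to 16486 cells and 178022112 to 260245417 UMIs. Day 2 replicate B was the shallowest, with a median of 3871 UMIs per cell against 8062 to 24197 in the others. Pairs of libraries shared 24 to 67 cell barcodes, at most 0.543% of a library. CPM are the counts of a gene scaled to a common library total. With TMM factors in that scaling, *Prrx1*, a marker of limb mesenchyme, was at 219 to 430 CPM in every library. The distal limb genes *Hoxa13* and *Hoxd13* were at 10.1 to 28.1 CPM on the same scale. Without TMM factors, the 14 chondrocyte markers summed to 2357 and 2572 CPM in the Day 2 libraries and 19780 and 18440 CPM in those of Day 7. At Day 10 they summed to 11950 and 11020 CPM, so these markers moved with the day. In sums over a whole culture, fewer cells of a type and less RNA per cell cannot be told apart.

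Levels of the 10 genes in the whole cultures are given as CPM scaled with TMM factors, and differences as log2 fold changes with standard errors from edgeR's quasi-likelihood test, n = 2 libraries per day, with Benjamini-Hochberg adjustment over 18987 genes. From Day 2 to Day 7, 6 of the 10 genes rose and 2 fell at an adjusted p under 0.05. These counts stand against 35.7% of all genes tested that rose and 34.6% that fell. From Day 7 to Day 10, 6 of 10 rose, against 26.3% of all genes, and none fell by edgeR, by DESeq2 or at an unadjusted p under 0.05 (0 in each), against 25.9% of all genes. Over all deposited barcodes, 1 member fell in that step, *Ankrd1* (-0.30, adjusted p = 0.0307 by edgeR), against 24.6% of all genes. Between Day 2 and Day 10, 8 rose and 1 fell, against 39% and 38.2% of all genes. The 2 falls by Day 7 were of *Yap1* and *Ankrd1*, of which 1 was left without Day 2 replicate B or Day 7 replicate B and 0 without Day 7 replicate A, and the fall by Day 10 was lost without Day 2 replicate B or Day 10 replicate A. The comparisons share libraries. Scaling by library totals alone moved the median of all genes by -0.28 (log2) for Day 7 and -0.26 for Day 10 against Day 2, and rises made up 33.3% and 36.9% of calls there against 50.8% and 50.5% with TMM. Changes are given relative to TMM.

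Of the effectors, the RNAs of TAZ and YAP took different courses by Day 7. *Wwtr1* stood at 71.5 and 67.7 CPM on Day 2, at 100.3 and 96.1 on Day 7 and at 99.3 and 94.97 at Day 10. It rose by Day 7 (log2 fold change 0.50 ± 0.05, adjusted p = 3.79e-05 by edgeR) and both later days lay above Day 2, while Day 7 and Day 10 overlapped. *Yap1* was at 34.0 and 34.7 CPM on Day 2, 30.7 and 29.98 on Day 7 and 35.9 and 33.4 at Day 10. It fell by 0.18 ± 0.05 on the log2 scale by Day 7 (adjusted p = 0.0140) and rose by 0.19 ± 0.05 by Day 10 (adjusted p = 0.0147), so that Day 10 overlapped Day 2. Both calls were lost without either Day 7 library, with adjusted p of 0.0699 and 0.117 for the fall and 0.0670 and 0.102 for the rise, and the rise was lost without Day 10 replicate A (adjusted p = 0.110). The fall was also lost over all deposited barcodes (-0.12, adjusted p = 0.0769) and turned to 0.17 with cells thinned to 1000 UMIs (adjusted p = 0.173). With thinned cells the rise was 0.05 (adjusted p = 0.735 by edgeR).

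*Tead1* was at 92.2 and 89.8 CPM on Day 2, at 88.5 and 89.5 on Day 7 and at 98.0 and 102 at Day 10. Its value for Day 7 against Day 2 was -0.03 ± 0.05 (log2, adjusted p = 0.570 by edgeR), and it rose by 0.17 ± 0.05 by Day 10 (adjusted p = 0.0172). The value for Day 7 depended on the scaling and on the weight of the cells. It was -0.31 with library totals alone (adjusted p = 0.000323) and 0.39 with cells thinned to 1000 UMIs (adjusted p = 0.00522). Sums over a culture weigh each cell by its UMIs, whereas thinned cells weigh alike. The rise by Day 10 was lost without Day 7 replicate A, Day 7 replicate B or Day 10 replicate B, where the adjusted p was 0.131, 0.0949 and 0.118, over all deposited barcodes (0.11, adjusted p = 0.0762) and with cells thinned to 1000 UMIs (0.20, adjusted p = 0.165). Scaled by library totals alone, *Yap1* and *Tead1* were lower at Day 10 than on Day 2, by -0.25 and -0.12 on the log2 scale, where TMM scaling gave 0.01 and 0.14.

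The 4 target genes did not share a course. *Ankrd1*, a nuclear and sarcomeric ankyrin-repeat protein, was at 32.5 and 42.6 CPM on Day 2, 23.9 and 27.3 on Day 7 and 22.3 and 29.8 at Day 10. It fell by 0.55 ± 0.15 (log2) by Day 7 (adjusted p = 0.0112 by edgeR), and Day 7 and Day 10 overlapped. The fall was lost without Day 2 replicate B (log2 value -0.34, adjusted p = 0.0968) or without Day 7 replicate A (-0.44, adjusted p = 0.0656). Counted over all deposited barcodes, the value was -0.11 (adjusted p = 0.351).

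*Amotl2*, an angiomotin that binds YAP and is induced by it, was at 56.2 and 61.8 CPM on Day 2, 73.9 and 70.5 on Day 7 and 73.0 and 70.05 at Day 10. It rose by 0.29 ± 0.06 by Day 7 (adjusted p = 0.00217 by edgeR) and overlapped between Day 7 and Day 10. With library totals alone, the rise was 0.01 (adjusted p = 0.902).

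With TMM scaling, *Ccn2* rose by Day 7 and *Ccn1* did not pass the test. *Ccn2* was at 190 and 178 CPM on Day 2, 267 and 264 on Day 7 and 290 and 302 at Day 10. Its rise by Day 7 was 0.53 ± 0.06 (log2, adjusted p = 3.78e-05 by edgeR), and the further 0.15 ± 0.06 by Day 10 missed the threshold (adjusted p = 0.0505, and 0.00992 by DESeq2). With cells thinned to 1000 UMIs the latter value was -0.20 (adjusted p = 0.14 by edgeR). *Ccn1* was at 266 and 262 CPM on Day 2, at 249 and 250 on Day 7 and at 417 and 383 at Day 10. Its value for Day 7 was -0.08 ± 0.06 (adjusted p = 0.244), with library totals alone -0.36 (adjusted p = 0.000321) and with cells thinned to 1000 UMIs 0.18 (adjusted p = 0.126). It rose by 0.68 ± 0.06 by Day 10 (adjusted p = 6.35e-05), a 1.604-fold higher level.

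**Figure D1:**
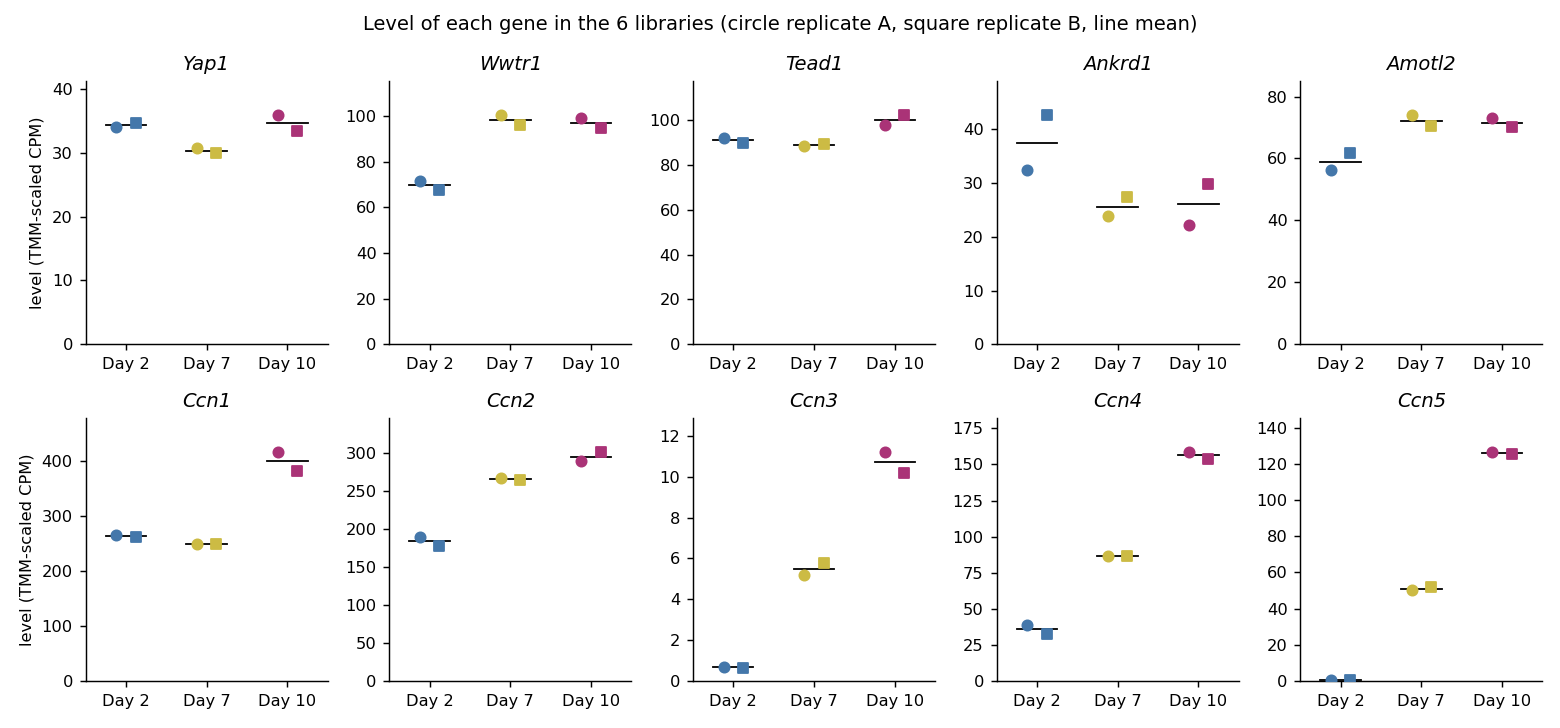
Level of the 10 genes in each library, as TMM-scaled CPM (y axes, starting at 0) by day of culture, with a circle for replicate A, a square for replicate B and a line for their mean. Ccn4 and Ccn5 climb at each day, Ccn1 climbs only between Day 7 and Day 10, and Ankrd1 is lower on Day 7 and Day 10 than at Day 2.

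The other CCN genes changed most. *Ccn5* was close to absent on Day 2, at 0.307 and 0.354 CPM (71 and 72 UMIs), and reached 50.2 and 51.8 CPM on Day 7 and 127 and 125 at Day 10. Its log2 fold change was 7.27 ± 0.08 by Day 7 (adjusted p = 8.96e-10 by edgeR) and a further 1.30 ± 0.05 by Day 10 (adjusted p = 2.52e-06). *Ccn4* was at 38.9 and 32.7 CPM on Day 2, at 86.6 and 86.3 on Day 7 and at 159 and 154 at Day 10. It rose by 1.27 ± 0.08 (adjusted p = 1.07e-06) and by 0.85 ± 0.08 (adjusted p = 6.71e-05). *Ccn3*, a CCN protein often linked to quiescent and joint cells, was at 0.701 and 0.639 CPM on Day 2, 5.21 and 5.77 on Day 7 and 11.2 and 10.2 at Day 10. It rose by 3.03 ± 0.10 (adjusted p = 3.48e-08) and by 0.96 ± 0.08 (adjusted p = 5.59e-05). For all 3 genes the calls for both steps held without each library in turn.

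**Figure D2:**
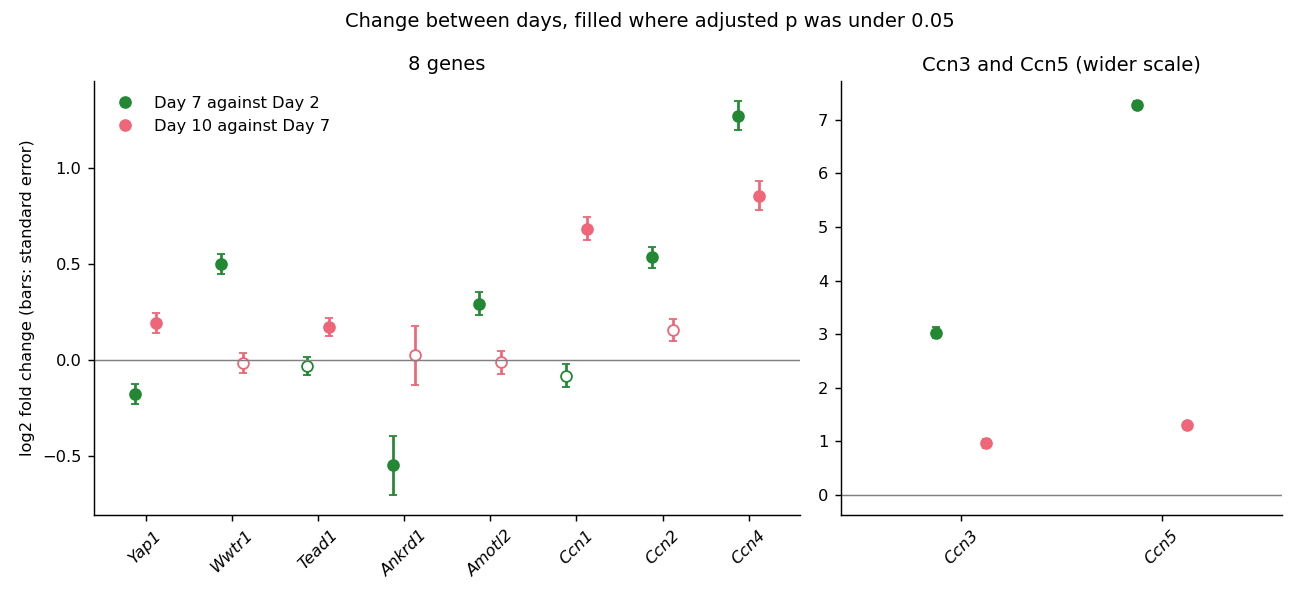
Log2 fold change of each gene (y axis) for Day 7 against Day 2 and Day 10 against Day 7, with standard errors from edgeR and filled points where the adjusted p was under 0.05. Ccn3 and Ccn5 have a panel of their own with a wider scale, and among the other 8 genes Ccn4 changed most in both steps.

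The other genes of the pathway are given as 6 lists, the median log2 change of all genes being 0.01 for Day 7 and -0.02 for Day 10. Each count stands against 35.7% of all genes that rose and 34.6% that fell by Day 7, and 26.3% and 25.9% from Day 7 to Day 10. Of 21 Hippo kinases and adaptors, 8 rose and 10 fell by Day 7 (median -0.06), and 3 rose and 8 fell by Day 10 (median -0.10). The kinase genes *Lats1*, at 21.4 and 21.0 CPM on Day 2 and 38.9 and 35.7 on Day 7, and *Taok3* rose by 0.81 and 1.55 (log2). *Limd1*, an adaptor that binds LATS kinases, rose by 0.80. The kinase genes *Map4k4* and *Stk4* fell by 0.72 and 0.32. By Day 10, *Taok2* fell by 0.62 and *Nf2*, the merlin tumour suppressor, by 0.37. Without Day 7 replicate A, 5 of the 21 rose by Day 7.

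Of 12 TEAD partners and cofactors, 11 were tested, of which 4 rose and 5 fell by Day 7 (median -0.04) and 6 rose and 3 fell by Day 10 (median 0.19). *Tead2*, a paralog of *Tead1*, was at 115 and 105 CPM on Day 2 and 34.8 in both Day 7 libraries and fell by 1.66 ± 0.06 (adjusted p = 5.54e-08 by edgeR). *Amot*, the founding angiomotin and a paralog of *Amotl2*, fell by 2.69 ± 0.07 (adjusted p = 7.49e-09). The skeletal transcription factors *Runx1*, *Runx2* and *Runx3*, which can act with YAP, rose by 0.87, 0.72 and 0.60, and *Vgll3*, a TEAD cofactor, rose by 0.79 from Day 7 to Day 10. Of the 3 that fell by Day 10, 1 was left without Day 7 replicate B or either Day 10 library.

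Of 18 other YAP and TAZ target genes, 12 rose and 4 fell by Day 7 (median 0.48), and 8 rose and 3 fell by Day 10 (median 0.17). *Nt5e*, a cell-surface nucleotidase, rose by 3.94, the matrix gene *Ccdc80* by 1.99 and *Igfbp3*, which encodes a carrier of insulin-like growth factors, by 1.97 by Day 7, while *Asap1* fell by 1.09 and *Tgfb2* by 0.45. By Day 10, *F3*, tissue factor, rose by 1.56 and *Crim1* fell by 0.51.

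Of 13 CCN receptors and binding partners, 9 rose and 1 fell by Day 7 (median 1.07), and 5 rose and 2 fell by Day 10 (median 0.08). *Dcn*, the collagen-binding proteoglycan decorin, rose from 4.30 and 4.50 CPM to 132 and 141 (4.96 ± 0.07, adjusted p = 1.77e-09 by edgeR) and fell by 0.89 by Day 10. *Hspg2*, perlecan, rose by 2.39 and *Sdc4*, syndecan-4, by 2.14, while *Itgb1*, the shared integrin beta subunit, fell by 0.24. By Day 10, *Fn1*, fibronectin, rose by 0.60 and the integrin subunit gene *Itgb5* by 0.50. Without Day 7 replicate B, 0 fell by Day 7, and without it or Day 10 replicate A, 3 rose by Day 10.

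Of 14 genes listed as serum response factor cytoskeletal targets, 3 rose and 6 fell by Day 7 (median -0.06), and 10 rose and 1 fell by Day 10 (median 0.45). The list also holds *Srf*, the gene of the factor itself, and *Mrtfa* and *Mrtfb*. The 1 that fell by Day 10 was *Mrtfb* (-0.22). *Tpm1* fell by 0.91 and *Myl9* by 0.48 by Day 7, while *Actg2* rose by 1.25 and *Tpm2* by 0.51, and *Acta2* rose by 0.81, *Tpm2* by 0.67 and *Actg2* by 0.95 from Day 7 to Day 10. Without Day 7 replicate A, 3 fell by Day 7, and without either Day 7 library or Day 10 replicate A, 0 fell by Day 10. Of these 14 genes, *Acta2*, *Tagln*, *Cnn1*, *Myl9*, *Tpm2* and *Actg2* are also markers of contractile cells. The summed level of all 8 contractile markers, scaled with TMM factors, was 4363 and 3607 CPM on Day 2, 3965 and 4230 on Day 7 and 6197 and 6425 at Day 10, so that Day 2 and Day 7 overlapped. By Day 7, 4 of the 8 were higher and 2 lower, from Day 7 to Day 10, 6 were higher, and none was at 0. Its part in the change of *Ankrd1*, *Ccn2* and the target lists was not tested.

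**Figure D3:**
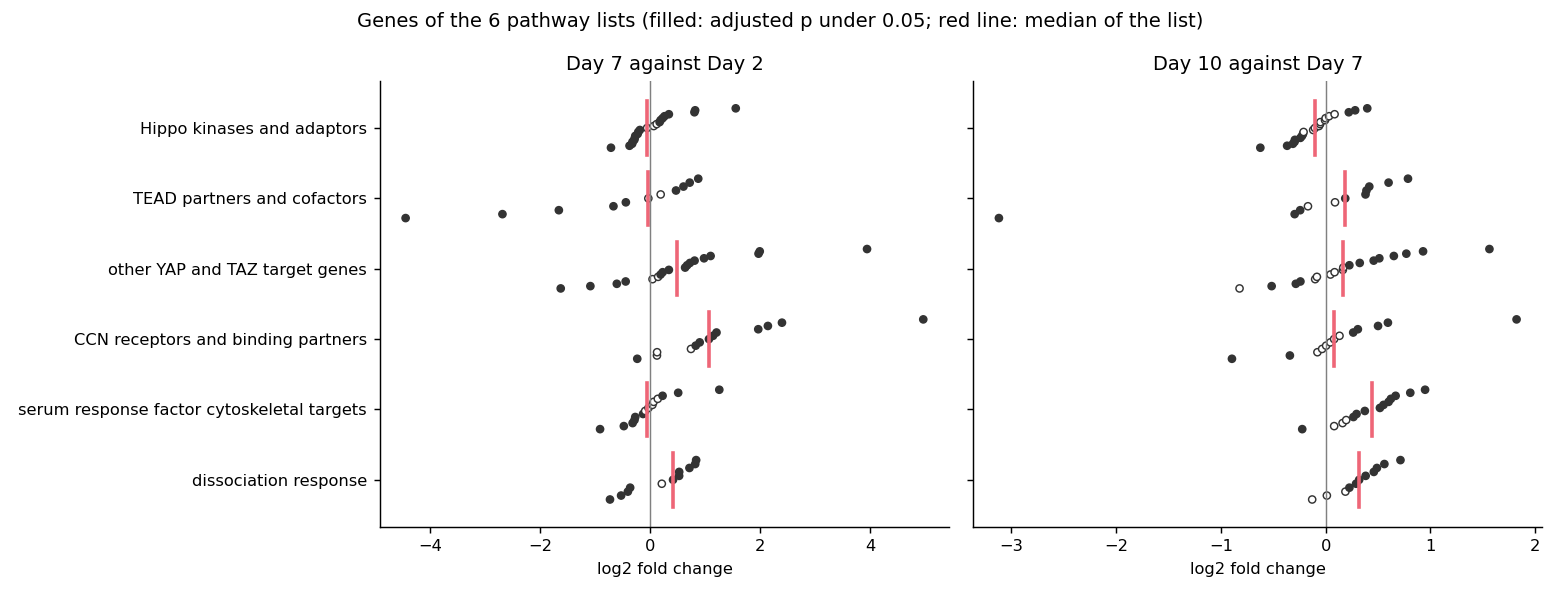
Log2 fold change (x axis) of every tested gene of the 6 lists for Day 7 against Day 2 and Day 10 against Day 7, filled where the adjusted p was under 0.05, with a red line at the median of each list. The CCN receptors and binding partners have the highest median by Day 7, 1.07, and the serum response factor targets by Day 10, 0.45.

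*Ccn1* is also an immediate early gene, and enzymatic dissociation can induce such genes, so 11 genes of the dissociation response were set beside it. By Day 7, 6 of them rose and 4 fell (median 0.41), and by Day 10, 8 rose and 3 did not pass the test (median 0.32). Their summed level, scaled with TMM factors, was 1504 and 1344 CPM on Day 2, 1214 and 1299 on Day 7 and 1397 and 1467 at Day 10. *Junb* rose from Day 7 to Day 10 by 0.56 ± 0.08 (adjusted p = 0.000824 by edgeR), and *Btg2* by 0.38 and *Zfp36* by 0.46. *Fos* and *Egr1* did not pass the test, with values of 0.01 and -0.13. Without Day 7 replicate A or Day 10 replicate A, 5 of the 11 rose by Day 10. The part of dissociation in the rise of *Ccn1* was not tested.

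Across cells, the 10 genes were spread in different ways. *Ccn1* had a UMI in 85.7% and 65.4% of cells on Day 2, 71.1% and 71.9% on Day 7 and 92.5% and 90.3% at Day 10. These shares follow depth, so every cell was also thinned to 1000 UMIs, which left out 120 cells of Day 2 replicate A, 205 of Day 10 replicate A and 121 of Day 10 replicate B. Thinned, *Ccn1* was in 26.7% and 25.9% of cells on Day 2, in 25.4% and 23.8% on Day 7 and in 37.1% (exact 95% interval 36.2% to 38.1%) and 34.8% at Day 10. *Ccn5* went from 0.699% and 0.382% of cells at Day 2 to 18.3% and 18.5% on Day 7 and 42.9% and 39.3% at Day 10, and thinned from 0.0536% and 0.0303% to 3.56% and 2.71% and to 7.81% and 7.57%. *Ccn4* was thinned in 2.86% of cells in both Day 2 libraries, 6.33% and 5.37% on Day 7 and 12.03% and 10.42% at Day 10. The intervals cover counting error only.

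*Ankrd1* was concentrated in few cells. As counted, it was detected in 7.48% to 9.38% of cells in every library. Thinned, it was in 1.48% and 3.77% of cells on Day 2, 2.425% and 2.47% on Day 7 and 1.27% and 1.37% at Day 10. Yet single cells held up to 236 to 357 UMIs of *Ankrd1*. The 1% of cells with most of its UMIs held 63.5% to 77.2% of them by library. For *Ccn1* the like share was 5.50% to 10.0%. *Yap1* was at a like thinned share in all libraries, from 3.43% to 4.16% of cells, and *Tead1* from 9.06% to 12.9%.

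**Figure D4:**
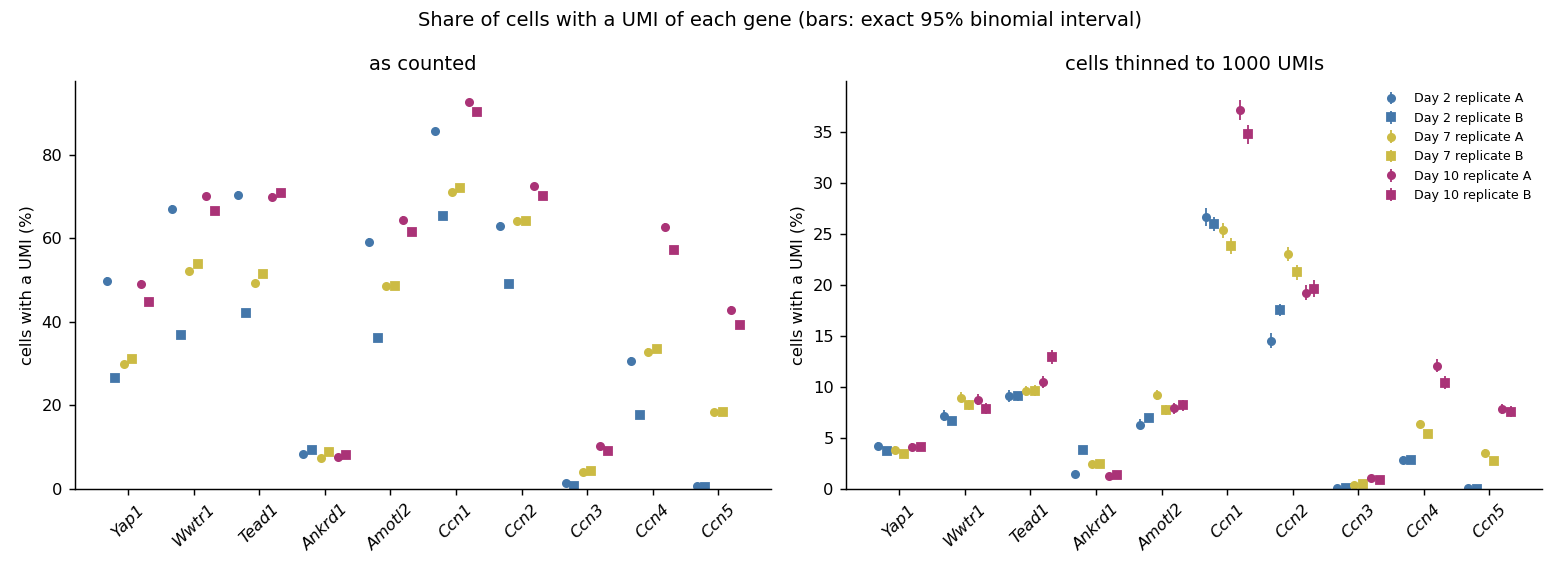
Percent of cells with a UMI of each gene (y axes), as counted on the left and after thinning each cell to 1000 UMIs on the right, for the 6 libraries with exact 95% binomial intervals. As counted, Day 2 replicate B lies below Day 2 replicate A for 9 of the 10 genes, and thinned, Ccn1, Ccn4 and Ccn5 are highest at Day 10.

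Cells were clustered in each library without the 10 genes or the pathway lists, and clusters were named from marker lists, with "-like" for the rebuilt names. Levels by class are plain CPM over the UMIs of the class and are a description without a test. Chondrocyte-like, contractile-like and dividing-like cells were found in all 6 libraries. Clusters left without a name held 19.7% to 56.6% of a library, so a class holds only part of its cells. In Day 2 replicate A the contractile-like class was a cluster led by *Aspn*, *Actg2* and *Eln*, in Day 2 replicate B one led by *Hbegf*, *Ly6a* and *Ankrd1* at a median of 4054 UMIs, and on Day 7 and Day 10 its larger or deeper clusters had *Actg2* and *Foxs1* among their leading genes, beside clusters at a median of 1164 to 3204 UMIs. The class is thus held by different clusters on each day.

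*Ankrd1* and *Ccn4* were higher in contractile-like than in chondrocyte-like cells of every library. *Ankrd1* exceeded its chondrocyte-like level in 6 of 6 libraries, with a mean log2 ratio of 4.55 ± 1.24 (SD). In contractile-like cells it was at 13.6 and 289 CPM on Day 2, at 166 and 81.5 on Day 7 and at 124 and 136 at Day 10, against 1.34 to 6.12 CPM in chondrocyte-like cells and 1.65 to 18.9 CPM in immune-like cells. Myocyte-like cells held more than contractile-like cells in Day 2 replicate A (31.8 CPM) and Day 7 replicate B (105 CPM). Contractile-like cells held 52.5% to 78.3% of all *Ankrd1* UMIs in every library but Day 2 replicate A, where 84.8% lay in unnamed clusters. In that library, a cluster of 632 cells led by *Ccl2*, *Hbegf* and *Tm4sf1* was highest, at 206 CPM. *Ccn4* exceeded its chondrocyte-like level by 3.21 ± 0.60 (SD, 6 of 6 libraries). It stood at 62.7 and 98.3 CPM in contractile-like cells on Day 2, 296 and 238 on Day 7 and 323 and 329 at Day 10, and was the highest of the named classes in each library. A cluster of 101 and 128 cells in the Day 10 libraries, led by *Ibsp* and *Ifitm5*, had 234 and 222 CPM of *Ccn4*. It met the marker list of hypertrophic chondrocytes without *Col10a1*, through genes such as *Ibsp*, *Sp7* and *Ifitm5* that osteoblasts also express, and is called by its leading genes.

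*Tead1* was also higher in contractile-like than in chondrocyte-like cells in 6 of 6 libraries, by 1.20 ± 0.42 (log2, SD). *Ccn1* was lower in them in 6 of 6 libraries, by -0.37 ± 0.34. *Wwtr1* had a mean log2 ratio of -0.06 ± 0.13 over libraries of all 3 days. It was 0.003 to 0.072 on Day 2 and Day 7, and -0.22 and -0.23 at Day 10. The mean of *Ccn2*, 0.26 ± 0.77, lay within the spread between libraries, and its ratio was 0.96 and 0.57 at Day 10. *Wwtr1* stood out in the small myocyte-like classes of Day 7, at 275 and 549 CPM, where the cells had a median of only 1630 and 1181 UMIs.

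*Ccn2* varied more between libraries in contractile-like than in chondrocyte-like cells. Chondrocyte-like cells held it at 319 and 286 CPM on Day 2, 298 and 302 on Day 7 and 306 and 357 at Day 10. Contractile-like cells held it at 155 and 570 CPM on Day 2, 343 and 274 on Day 7 and 597 and 530 at Day 10, below the chondrocyte-like level in Day 2 replicate A and Day 7 replicate B and above it in the other libraries. The cluster led by *Ibsp* and *Ifitm5* had little, 46.5 and 72.8 CPM. Interdigital mesenchyme-like cells of Day 2 were at 44.7 and 21.7 CPM. *Ccn5* was near 0 in every class at Day 2 (0 to 0.668 CPM) and at Day 7 was highest, among named classes, in contractile-like cells, 81.0 and 137 CPM. At Day 10 it was at 151 and 162 CPM in dividing-like cells and at 20.9 and 25.6 CPM in chondrocyte-like cells, where immune-like cells had 27.1 and 18.6 CPM and the cluster led by *Ibsp* and *Ifitm5* 7.71 and 10.1 CPM. At Day 10 unnamed clusters held more *Ccn5* than any named class. The highest were at 234.1 CPM in Day 10 replicate A and 262.0 in Day 10 replicate B, with *Mfap4* and *Scx* among their leading genes, and clusters led by *Prg4* had 140.3 CPM in Day 7 replicate A, 224.4 in Day 10 replicate A and 233.3 in Day 10 replicate B. *Ccn3* was highest, among named classes, in the tenocyte-like cells found at Day 7 in replicate B, 21.8 CPM, where they held 50.1% of its UMIs. Unnamed clusters were higher in other libraries, at 27.9 CPM in Day 7 replicate A, 24.7 in Day 10 replicate A and 47.8 in Day 10 replicate B, the last led by *Msln* and *Wnt10a*.

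Each perichondrium-like class was 1 cluster, and it carried more *Tead1* (211.2 to 332.5 CPM), *Amotl2* (144.3 to 186.8 CPM) and *Ccn1* (432.5 to 889.4 CPM) than any other named class summed over its clusters, in the 4 libraries that held it. Single clusters of those other classes reached higher in some of these libraries. A dividing-like cluster had 227.4 CPM of *Tead1* and 154.0 of *Amotl2* in Day 7 replicate A, and 275.6 and 175.0 in Day 10 replicate A. A chondrocyte-like cluster had 662.0 CPM of *Ccn1* in Day 7 replicate A, 519.3 in Day 7 replicate B and 1154 in Day 10 replicate A. Unnamed clusters also held much *Tead1*, 300.3 CPM in Day 2 replicate A and 340.4 in Day 10 replicate B. The first shared the leading genes *Gm26917* and *Mirg* with the perichondrium-like cluster of Day 2 replicate B. The second shared *Adamts6* and *Pcsk5* with those of Day 7 replicate B and Day 10 replicate A. In Day 2 replicate B and Day 7 replicate B, no perichondrium marker was among the leading genes of the perichondrium-like cluster, so the name is weak there. The perichondrium-like clusters had a median of 3505 to 4918 UMIs per cell, below the whole-library median in every one of the 4, and the leading genes included noncoding RNAs such as *Gm26917* in Day 2 replicate B and mitochondrial RNAs such as *mt-Atp6* in both Day 7 libraries. The part of RNA quality in these levels was not tested. Immune-like cells, which should lack the CCN genes, had *Ccn1* in 60.7% of 191 cells at Day 10 replicate B and in 10.6% of cells after thinning, at a median of 20213 UMIs. The whole library had 90.3% and 34.8%. In Day 7 replicate B, 1.59% of 63 immune-like cells had an *Ankrd1* UMI after thinning, against 2.47% of the library at a median of 9337 UMIs.

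**Figure D5:**
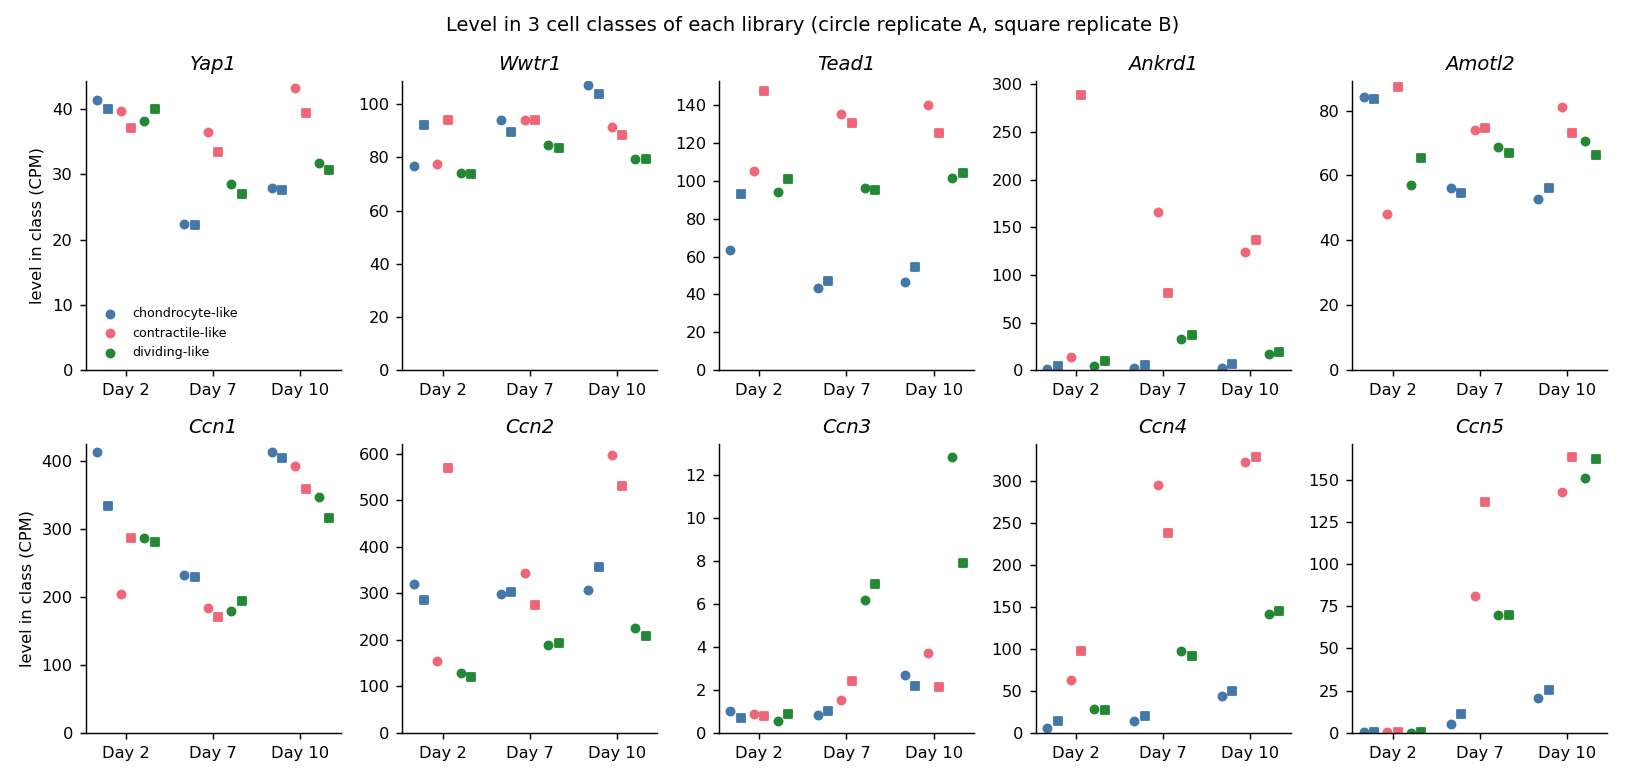
Level of each gene in CPM (y axes, starting at 0) in chondrocyte-like, contractile-like and dividing-like cells by day of culture, with circles for replicate A and squares for replicate B. Of these classes, Ankrd1 and Ccn4 lie highest in contractile-like cells in each library, and Ccn5 is near 0 in all 3 classes at Day 2.

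Changes between days were then tested within each class by edgeR on summed counts, with TMM factors of the class. In dividing-like cells, 8 members rose and 2 fell by Day 7, against 34.4% and 32.8% of the genes tested there. *Ccn3* was among the 8, but in Day 7 replicate B these cells lay below the 7.34 CPM of immune-like cells. No change of *Ccn3* at either step is read from the dividing-like cells. The 2 that fell were *Yap1* (by 0.27 ± 0.06, adjusted p = 0.00213) and *Ccn1* (by 0.37 ± 0.07, adjusted p = 0.000295). *Ankrd1* rose in these cells, from 4.43 and 8.27 CPM to 34.1 and 39.4 (2.57 ± 0.18, adjusted p = 1.86e-08), and its difference from the whole culture was not tested. The class joins 3 clusters in each Day 7 library, and 1 of them in replicate A, of 267 cells, had the lowest *Ankrd1* of that library's clusters, 1.07 CPM. By Day 10, 4 members rose and 1 fell, against 20.9% and 20.8%. Those that rose were *Ccn1* (0.79 ± 0.07), *Ccn3*, *Ccn4* and *Ccn5*, and *Ankrd1* fell by 0.96 ± 0.17 (adjusted p = 0.000614). In Day 10 replicate B the unscaled *Ankrd1* level of these cells, 19.1 CPM, was close to the 18.9 CPM of immune-like cells. The size of its fall is not read.

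In chondrocyte-like cells, 4 members rose by Day 7 and 1 fell, against 31.1% and 30.9% of genes. *Wwtr1* rose by 0.60 ± 0.08, *Ccn2* by 0.47 ± 0.09, *Ccn4* by 1.22 ± 0.30 and *Ccn5* by 4.14 ± 0.53, and *Yap1* fell by 0.38 ± 0.07 (adjusted p = 0.00138). The rises of *Wwtr1* and *Ccn2* hold relative to the TMM factors of the class only. In plain CPM, *Ccn2* was at 319 and 286 on Day 2 and 298 and 302 on Day 7. *Wwtr1* was at 76.7 and 92.0 CPM and then 93.9 and 89.4, so that the days overlapped for both. By Day 10, 5 rose and 0 fell by edgeR, against 15.1% and 14.9%, with 0 lower at an unadjusted p under 0.05 and by DESeq2 as well. *Ccn1* rose from 267 and 262 CPM to 445 and 425 (0.72 ± 0.11, adjusted p = 0.00221). The others were *Yap1*, *Ccn3*, *Ccn4* and *Ccn5*. At Day 10 the unscaled *Ccn3* level of chondrocyte-like cells, 2.70 and 2.16 CPM, was below the 2.97 and 7.16 CPM of immune-like cells in both libraries, and that of *Ccn5*, 20.9 and 25.6 CPM, was below theirs in replicate A and above it in replicate B. No change of *Ccn3*, and no rise of *Ccn5* by Day 10, is read from the chondrocyte-like cells. Without Day 7 replicate A, 2 rose by Day 10, and without either Day 2 library, 2 fell by Day 7. In Day 7 replicate B, *Ccn4* was at 19.7 CPM (unscaled) in chondrocyte-like and 19.6 CPM in immune-like cells, and *Ccn5* at 11.2 and 2.45 CPM. No rise of *Ccn4* by Day 7 is read from the chondrocyte-like cells. The immune-like class of that library was only 63 cells.

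In contractile-like cells, edgeR called 3 members higher by Day 7, *Ccn3*, *Ccn4* (1.91 ± 0.26, adjusted p = 0.00665) and *Ccn5*, and 0 fell by edgeR, DESeq2 or an unadjusted p under 0.05. With the Day 2 and Day 7 libraries alone, a fit added after the data were seen, *Ccn3* was not called (1.47 ± 0.38, adjusted p = 0.0662), while *Ccn4* and *Ccn5* were, against 8.27% of genes that rose in that fit. The unscaled *Ccn3* level on Day 7 was 1.52 and 2.41 CPM, below the 7.34 CPM of immune-like cells in replicate B, and no change of *Ccn3* is read from the contractile-like cells either. The background of the fit over all libraries was 16.6% and 15% of genes. From Day 7 to Day 10 edgeR called 0% of genes either way, with 2493 of 14783 genes at an unadjusted p under 0.05 and 565 called by DESeq2, and 0 members, with 2 at an unadjusted p under 0.05 and 1 called by DESeq2. In this fit the 2 Day 2 libraries, whose contractile-like clusters had different leading genes, share in the estimate of the spread. With the Day 7 and Day 10 libraries alone, likewise added, 2 members rose, *Ccn1* by 1.09 ± 0.08 (adjusted p = 0.00266) and *Ccn2* by 0.87 ± 0.12 (adjusted p = 0.0137), against 6.63% of genes that rose in that fit. The members called by Day 7 changed in number without Day 2 replicate A and without Day 2 replicate B, each a fit with 1 Day 2 library. Leaving out either of them gave 2 rises by Day 10. No share of all genes was taken in these fits, so their counts are not read.

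In joint interzone-like cells, tested for Day 7 only, 6 members rose and 1 fell, against 31.5% and 29.9%. Among those that rose were *Ccn3* and *Ankrd1*. In Day 7 replicate B these cells lay below the 7.34 CPM of immune-like cells for *Ccn3*. For *Ankrd1* they also lay below immune-like cells, at 3.40 CPM, and neither change is read. *Ccn4* rose from 10.5 and 8.37 CPM to 72.5 and 81.2 (3.01 ± 0.11, adjusted p = 1.33e-11), and *Yap1* fell by 0.55 ± 0.09. *Ccn5* was at 0.140 and 0.0854 CPM there at Day 2 and at 31.2 and 32.5 at Day 7. *Ccn1* did not pass the test (0.06 ± 0.07, adjusted p = 0.497), at 401 and 447 CPM at Day 2 and 455 and 428 at Day 7. Myocyte-like cells of Day 7 had a median of only 1630 and 1181 UMIs. The myocyte-like clusters of Day 2 replicate A had medians of 26766 and 27567. The part of depth in the changes of this class was not tested. In myocyte-like cells 0 of the 8 members tested fell by Day 7 by edgeR, DESeq2 or an unadjusted p under 0.05, against 6.83%. Of the 8, 3 rose, against 8.77%. These were *Wwtr1* (2.43 ± 0.37, adjusted p = 0.00107), *Ankrd1* (2.10 ± 0.35) and *Ccn2* (1.71 ± 0.34), in classes of 91 and 113 cells at Day 7, and the count was 1 without Day 2 replicate B and 5 without Day 7 replicate A.

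In a test added after the data were seen, the change from Day 2 to Day 7 was set side by side in dividing-like and chondrocyte-like cells of the same libraries. For 5 of 10 members it differed between the classes, against 33.6% of the genes tested, and for the step to Day 10 it differed for 0 by edgeR, with 3 at an unadjusted p under 0.05, against 11.6%. *Amotl2* changed by 0.52 ± 0.09 more (log2) in dividing-like cells (adjusted p = 0.00230). *Ccn3* was among the 5, but in Day 7 replicate B both classes, at 6.92 and 1.02 CPM, lay below the 7.34 CPM of immune-like cells, and its difference is not read.

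By the pattern over 96 clusters of at least 50 cells, centred within each library, the genes most like each member were as follows. For *Amotl2* they were *Lats2* (r = 0.87), *Wwc2* and *Bmpr2*, and for *Tead1* *Slit2* (r = 0.88), *Mprip* and *Wwc2*. For *Yap1* they were *Adgrl1* (r = 0.84), *Amotl1* and *Nbea*, and for *Wwtr1* *Sccpdh* (r = 0.76), *Pwwp3b* and *Mapre3*. *Ankrd1* was most like *Csrp1* (r = 0.83) and *Hspb1*. *Ccn1* was most like *Fgfr1* (r = 0.91), *App* and *Ddr2*, *Ccn2* like *Crim1* (r = 0.86), *Id4* and *Thbs1*, and *Ccn3* like *Itih5* (r = 0.78), *Penk* and *Igf1*. *Ccn4* was most like *Schip1* (r = 0.77), *Lox* and *Creb3l1*, and *Ccn5* like *Pmepa1* (r = 0.78), *Mmp23* and *Loxl1*. Among the members, *Tead1*, *Amotl2* and *Yap1* were most alike (r = 0.81 to 0.82), and of the CCN genes *Ccn4* and *Ccn5* (r = 0.64). The clusters of a library share its cells and depth, so these values describe likeness and carry no p. In both Day 2 libraries and Day 7 replicate A, *Tead1*, *Amotl2* and *Yap1* were all highest in the same cluster. Its median was 2511, 3505 and 6982.5 UMIs per cell, below that of the library in each case. The part of depth and RNA quality in their likeness was not tested.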

How the data were processed

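The 6 droplet libraries of DID cultures (CD-1, E11.5 distal forelimb mesenchyme) came in pairs, 1 pair for each of the 3 days. The deposited matrices hold raw UMI counts per gene and barcode, which per the labels the authors made with Cell Ranger 6.1.2 on GRCm38. The members and gene lists were chosen with earlier results of these data known.

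Cells were kept with the limits that the study states, more than 800 or 1000 UMIs, 200 to 7500 genes and capped mitochondrial and ribosomal shares. The barcodes left out held 21.7% to 28.5% of UMIs. No doublet caller was run. Counts were summed per library, and by class, and tested with edgeR 4.0.16 (filterByExpr, TMM, quasi-likelihood, 3 residual degrees of freedom, R 4.3.3), with DESeq2 1.42.0 as an alternative. The fits were also run on simulated data, and no result is drawn from those runs. The labels do not say whether a replicate letter marks the same culture on different days, and A minus B differences did not correlate between days (r of -0.06 to -0.01), so letters were not used as pairs.

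Each library was clustered by Leiden at a resolution of 1.0 on 2000 variable genes and 30 components (scanpy 1.11.5). A cluster was named with at least 3 markers at a log2 ratio of 1.0 in at least 25% of cells. Genes named from a list are up to 3 per direction and step with the largest change among those called, with no overlap of replicates and at least 10 CPM on one day, besides the dissociation genes. Likeness is Pearson's r of log2(CPM + 1). 1 item is not reported here. Alternatives are in the closing section, and the test between classes was added after the data were seen.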

Additional observations from a re-analysis of the deposited data

Results flagged for a closer look

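The change from Day 2 to Day 7 in dividing-like cells was larger than in chondrocyte-like cells of the same libraries for 5 members, by edgeR's test of the difference itself, adjusted over 16431 genes. The differences on the log2 scale were 0.52 for *Tead1* (adjusted p = 0.0153), 0.52 for *Amotl2* (adjusted p = 0.00230), 0.39 for *Ccn2* (adjusted p = 0.0113), 2.82 for *Ccn3* (adjusted p = 0.00152) and 3.80 for *Ccn5* (adjusted p = 0.0224). For *Tead1* and *Amotl2* the value was above 0 in dividing-like cells, 0.21 and 0.38, and below 0 in chondrocyte-like cells, -0.31 and -0.12, where neither passed the test. Such differences were found for 33.6% of all genes tested. In Day 7 replicate B, dividing-like and chondrocyte-like cells had *Ccn3* at 6.92 and 1.02 CPM, both below the 7.34 CPM of immune-like cells, and its difference is not read. Chondrocyte-like cells had *Ccn5* at 11.2 CPM against 2.45.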

How the results depend on the processing

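In whole cultures, the rises of *Ccn3*, *Ccn4* and *Ccn5* at both steps held their call under every alternative run on them. Small changes of *Yap1*, *Tead1*, *Ankrd1* and *Amotl2* there did not. Within classes, calls of *Ccn3*, *Ccn4* and *Ccn5* did not all hold. Causes were not tested. Members lower at Day 7 against Day 2 numbered 4 with library totals alone, where 49.1% of all genes were lower. They numbered 0 over all deposited barcodes (34.2% of all genes) and 0 with thinned cells (28.15%). The number also moved when 1 library was left out. Members lower at Day 10 numbered 1 against Day 7 over all barcodes (24.6% of all genes) and 3 against Day 2 with library totals (49.2%). Against Day 2 the number also moved when 1 library was left out.

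With library totals, 3 Hippo kinases and adaptors rose, 3 CCN receptors and 10 serum response factor targets fell by Day 7. DESeq2 had 1 TEAD partner lower by Day 10. Leaving out 1 library, Hippo kinases and adaptors higher (Day 7 against Day 2) ranged from 5 to 8, CCN receptors and binding partners lower (Day 7 against Day 2) ranged from 0 to 1, serum response factor cytoskeletal targets lower (Day 7 against Day 2) ranged from 3 to 7, TEAD partners and cofactors lower (Day 10 against Day 7) ranged from 1 to 4, CCN receptors and binding partners higher (Day 10 against Day 7) ranged from 3 to 5, serum response factor cytoskeletal targets lower (Day 10 against Day 7) ranged from 0 to 1, dissociation response higher (Day 10 against Day 7) ranged from 5 to 9, members lower within chondrocyte-like cells (Day 7 against Day 2) ranged from 1 to 2, members higher within chondrocyte-like cells (Day 10 against Day 7) ranged from 2 to 5, members higher within contractile-like cells (Day 7 against Day 2) ranged from 2 to 8, members lower within contractile-like cells (Day 7 against Day 2) ranged from 0 to 3, members higher within contractile-like cells (Day 10 against Day 7) ranged from 0 to 2, members higher within myocyte-like cells (Day 7 against Day 2) ranged from 1 to 5.

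Within classes by Day 7, library totals gave 1 member higher and 4 lower in chondrocyte-like cells and 4 lower in joint interzone-like cells. Members lower in chondrocyte-like cells were 2 at 0.5 times and 3 at 2 times the clustering resolution. In contractile-like cells 3 were lower at 0.5 times, and by Day 10, 1 was higher with DESeq2, 1 without a filter on low counts, 4 at 0.5 times the resolution and 2 with the 2 compared days alone, which also gave 1 lower in chondrocyte-like cells. Without the filter, 5 rose in myocyte-like cells. For the within-class counts by resolution, library totals, filter or 1 library left out, no share of all genes was taken. They show only that calls moved.

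Directions turned for these log2 changes. With thinned cells, Day 7 values were 0.17 for *Yap1*, 0.39 for *Tead1* (adjusted p = 0.00522 by edgeR) and 0.18 for *Ccn1*, and Day 10 against Day 7 gave -0.83 for *Ankrd1* and -0.20 for *Ccn2*. Over all barcodes, *Ankrd1* was -0.30 and *Amotl2* 0.0013 in that step. With library totals it was 0.0054 for *Wwtr1* and 0.0081 for *Amotl2*, and Day 10 against Day 2 was -0.25 for *Yap1* and -0.12 for *Tead1*. Leaving out 1 library, Day 10 against Day 7 turned for *Wwtr1* (-0.047 to 0.022), *Ankrd1* (-0.20 to 0.22) and *Amotl2* (-0.044 to 0.022), and Day 10 against Day 2 for *Yap1* (-0.026 to 0.078).

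The labels do not say that the replicate letters pair the samples. A fit with a replicate block left the whole-culture counts at 6 and 2 by Day 7, against 35.15% and 34.03% of all genes. It gave 2 members lower in chondrocyte-like cells, where no share of all genes was taken. Depth limits Ccn3 and Ccn5 at Day 2, where each library held under 200 UMIs.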
